A study of Mus musculus with 6 samples.

Results

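Small nucleolar RNAs (snoRNAs) are short non-coding RNAs that guide the chemical modification of ribosomal RNA in the nucleolus. The members described here were chosen by gene symbol, as every feature whose symbol starts with Snora or Snord followed by a digit, and were then ordered by their measured mean log2 level over all arrays. This family of genes was picked with earlier results of these data known, so the counts below are no independent evidence of its direction. The rule found 99 of 25206 features, of which 34 were of the box H/ACA class (Snora) and 65 of the box C/D class (Snord). All 99 were measured and tested, with no filter on low values, and 8 of them had a mean log2 level at or below 3.55, the median of all features. Because mean level was part of the rule, differences in level between members are a description without a test. The levels of different probe sets depend on their probes and are not read as amounts of RNA.

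The samples were macrophages drawn into the mouse peritoneal cavity by thioglycollate broth and collected on day 4. The first group came from 3 Tet2-deficient (Tet2-/-) mice and the second from 3 wild-type littermates, all C57BL/6J. Lipopolysaccharide (10 ng/mL) was given to all 6 cultures together with interferon gamma (2 ng/mL) for 10 hours, so every value describes stimulated cells and none an untreated state. Tet2 is an enzyme that oxidises 5-methylcytosine in DNA. The sources used here do not say which exons were removed, and they give no age or sex of the mice. Each culture gave 1 whole-transcript array, with values that the authors had brought to the log2 scale by RMA.

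Both snoRNA classes act as RNA-protein complexes. Box C/D RNAs bind fibrillarin (Fbl), Nop56, Nop58 and Snu13 and guide 2'-O-methylation, whereas box H/ACA RNAs bind dyskerin (Dkc1), Nhp2, Nop10 and Gar1 and guide pseudouridylation. A few members of each class act instead in the cutting of the ribosomal RNA precursor. Most vertebrate snoRNAs are released from introns of host genes, many of which encode ribosomal proteins or non-coding RNAs of the Snhg type.

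The labels were checked first. Tet2 itself had log2 levels of 5.55, 5.25 and 5.75 in the Tet2-deficient arrays, against 5.40, 5.07 and 5.10 in the wild-type arrays (log2 change 0.32 ± 0.16 SE, adjusted p = 0.365). The groups overlapped, so this feature does not check the genotype, and every direction below rests on the labels. Probes outside the removed exons would check nothing, and where the probes lie is not known here. Of 7 macrophage markers measured, all had mean log2 levels of at least 9.41, and 2 passed the threshold, Itgam and Cd14, each with a log2 change of 0.97 (limma adjusted p = 0.0211 and 0.0152). Fcgr1 (-0.51) and Mertk (-0.10) went the other way without passing, and the median of the 7 was 0.15. Of the T cell markers all 5 measured, and of the mast cell markers all 5, lay below the median level of all features, as did 5 of 7 neutrophil, 3 of 5 B cell and 3 of 4 eosinophil markers. None of these passed, although the neutrophil gene S100a8 was well above that median with a log2 change of 0.53 (adjusted p = 0.397). Markers of mesothelium and fibroblasts summed to 30.9 to 37.5 in Tet2-deficient arrays and to 30.6 to 33.7 in wild-type arrays. The fibroblast gene Dcn had a log2 change of 1.26 without overlap (adjusted p = 0.0715), Col1a2 0.81 and Col1a1 0.59, with the highest values of all 3 in Tet2-deficient replicate 2. The rest of this list went both ways, with Muc16 at -0.42, Wt1 -0.21, Krt19 -0.15, Msln 0.10 and Upk3b 0.06. Its median log2 change was 0.08. Markers of resident peritoneal macrophages summed to 42.6 to 45.5 on the log2 scale in Tet2-deficient arrays and to 38.1 to 40.2 in wild-type arrays. Of these 7 markers 2 passed the threshold, both higher, F5 (log2 change 1.83) and Timd4 (1.19). Alox15 (1.07) and Icam2 (0.99) were higher without passing, and the median of the 7 was 0.99. Selp had 0.07, and the most specific of the markers, Gata6, had a log2 change of 0.23 (adjusted p = 0.657). Cd9 went the other way, with a log2 change of -0.32 (adjusted p = 0.212). The part of these shifts in the snoRNA values was not tested, and in bulk RNA fewer cells of a type and less RNA per cell cannot be told apart.

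The comparison asked how transcripts differ between Tet2-deficient and wild-type macrophages under an inflammatory stimulus. For the snoRNAs the answer ran nearly all one way: 97 of 99 members had a lower mean in Tet2-deficient arrays, where 14599 of all 25206 features did. With the trend of each array with gene span and mean level removed, 84 of 99 members were lower. Their median log2 change was then -0.24 in place of -0.61, against -0.01 over all features. In that fit 34 members were lower at an unadjusted p under 0.05, a count given without its share over all features. At an adjusted p under 0.05 it called 5 members with limma, all lower, and 233 features in all, of which 99 were lower. The trend was fitted with the members included, so it can take up part of their own shift. The median log2 change (Tet2-deficient minus wild-type) was -0.66 over the 34 box H/ACA members and -0.60 over the 65 box C/D members, against -0.04 over all features. With limma fitted over all 25206 features, 7 members passed an adjusted p of 0.05, all of them lower and all of them box H/ACA; over all features 0.305% were called lower. At an unadjusted p under 0.05, 81 of 99 members were lower and 0 higher, where 8.37% of all features were lower. In 72 of 99 members every Tet2-deficient array lay below every wild-type array, as it did for 12.2% of all features.

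**Figure D1:**
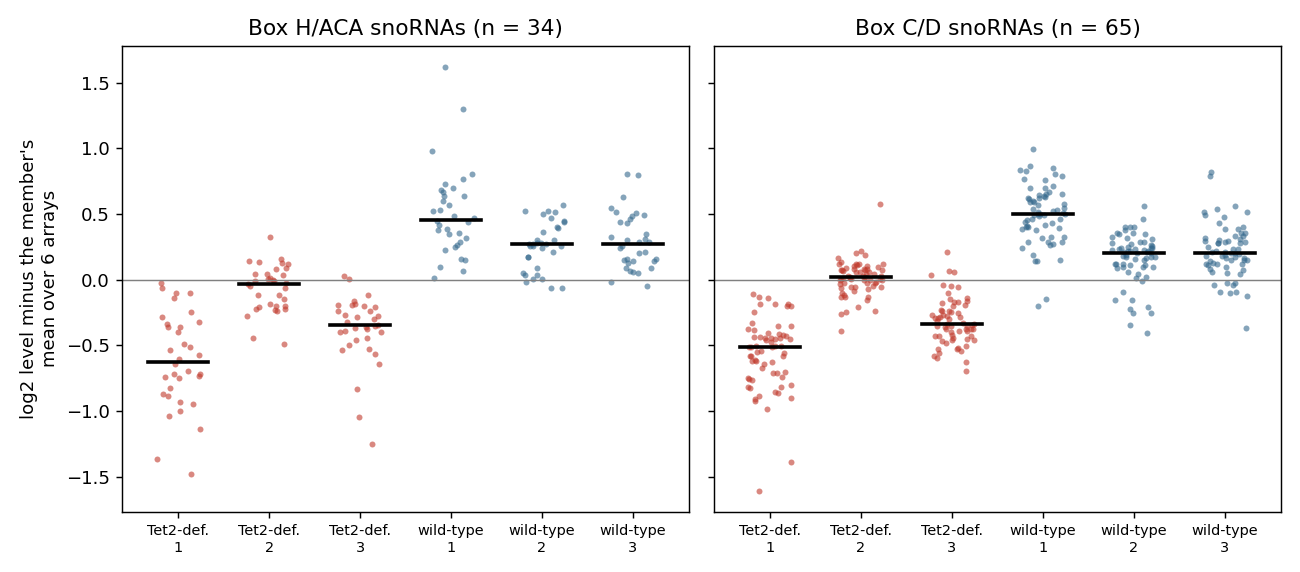
Log2 level of each snoRNA minus its own mean over the 6 arrays (vertical axis), for box H/ACA (left, 34 members) and box C/D (right, 65 members). Each point is 1 member on 1 array and the black bar is the median over members. Tet2-deficient replicate 1 is the lowest array in both panels and wild-type replicate 1 the highest.

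The arrays of a group did not sit at 1 level. The median deviation of the box H/ACA members from their own means was, in replicate order, -0.63, -0.03 and -0.35 for the Tet2-deficient arrays, against 0.46, 0.27 and 0.27 for the wild-type arrays. For the box C/D members it was -0.52, 0.02 and -0.34 in Tet2-deficient arrays and 0.50, 0.20 and 0.20 in wild-type arrays. In both classes the 3 Tet2-deficient arrays lay below the 3 wild-type arrays, with Tet2-deficient replicate 2 closest to them. Replicate 2 was the highest Tet2-deficient array for 89 of 99 members, and replicate 1 was the lowest for 72. Among the wild-type arrays replicate 1 was the highest for 78 members. Members thus shifted together from array to array, so they are not independent measurements of the genotype.

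The array-to-array pattern was also nearly the same in the 2 classes. The box H/ACA median minus the box C/D median was, in replicate order, -0.11, -0.05 and -0.01 for the Tet2-deficient arrays, against -0.05, 0.07 and 0.07 for the wild-type arrays. The groups overlapped, and the difference between the 2 class medians of log2 change was -0.05, with an SD between arrays of 0.06. The classes differed more in their spread. Log2 changes had an SD of 0.42 over box H/ACA members (range -1.82 to -0.06) and of 0.27 over box C/D members (range -1.30 to 0.22). The median standard error of a member was 0.16 in the first class and 0.18 in the second. Box H/ACA members were dimmer, with a median level of 7.32 against 8.23, and the part of level in the spread was not tested. A log2 change of -1 or below was found for 8 of 34 box H/ACA members and 3 of 65 box C/D members, where 0.206% of all features were as low. No test of these counts between the classes was made.

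The 7 to 0 split of calls between the classes depended on the threshold, on how the variance was estimated and on single arrays. The box C/D member with the smallest adjusted p was Snord43 (0.0503). At an adjusted p under 0.1 the calls were 12 box H/ACA and 13 box C/D, and they were 14 and 23 when the prior was trended and robust. Features above the median level alone gave 13 and 17, and array weights 11 and 6. Other settings kept the split: it was 8 and 1 with centred arrays, 8 and 0 with cyclic loess, and 5 and 0 both with the replicate block and with the span and level trend removed. The number of members called also rested on single arrays: without Tet2-deficient replicate 1, 2 or 3 it was 0, 11 and 0, and without wild-type replicate 1, 2 or 3 it was 2, 1 and 0. The 11 were 7 box H/ACA and 4 box C/D members. Calls over all features fell as well, from 240 to 27, 114 and 11 and to 155, 67 and 25 in the same order. The direction of the members did not rest on single arrays: 95 to 98 of the 99 stayed lower in each of these 6 fits, with 59 to 86 at an unadjusted p under 0.05. The median log2 change over all features was -0.05 to -0.03 in these fits, and the shares of all features at an unadjusted p under 0.05 are not given for them.

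Snora36b, a box H/ACA RNA, had the largest difference of all members. Its log2 levels were 4.34, 4.93 and 4.12 in Tet2-deficient arrays, against 7.00, 5.94 and 5.92 in wild-type arrays. The groups did not overlap, and wild-type replicate 1 stood about 1 log2 unit above the other wild-type arrays. Snora36b fell to 28.3% of the wild-type level (log2 change -1.82 ± 0.30, limma adjusted p = 0.0315, n = 3 per group). Without wild-type replicate 1 the call held, with a log2 change of -1.47, the smallest of the 6 fits with 1 array left out.

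Snora81, encoded within the translation factor gene Eif4a2, had log2 levels of 6.81, 8.07 and 7.47 in Tet2-deficient arrays and 9.60, 8.75 and 9.10 in wild-type arrays. All Tet2-deficient values lay below all wild-type values, and Snora81 fell by 1.70 ± 0.31 on the log2 scale (limma adjusted p = 0.0409). The call ended with the replicate block (adjusted p = 0.0709) and with the span and level trend removed (0.0530). Snord2, the box C/D RNA of the same gene, was at 7.70, 8.65 and 8.18 in Tet2-deficient arrays and at 9.11, 9.01 and 8.99 in wild-type arrays. Its log2 change of -0.86 ± 0.21 did not pass (adjusted p = 0.0902), and Eif4a2 itself had a log2 change of 0.31 ± 0.18 (adjusted p = 0.445).

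Snora73a and Snora73b, the U17 RNAs, differ from most of their class in acting in the processing of the 18S ribosomal RNA precursor rather than only in pseudouridylation. Snora73a had log2 levels of 8.03, 8.65 and 8.47 in Tet2-deficient arrays and 9.59, 9.39 and 9.41 in wild-type arrays. Snora73b had 9.08, 9.75 and 9.40 in Tet2-deficient arrays and 10.54, 10.44 and 10.46 in wild-type arrays. Both showed groups that were clear of each other, with wild-type arrays within 0.20 of each other. The log2 changes were -1.08 ± 0.17 and -1.07 ± 0.17 (limma adjusted p = 0.0260 and 0.0265). The U17 copies are close in sequence and lie in 1 non-coding gene, Snhg3, so their probe sets may read both and they are not separate evidence.

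Snora75, from the gene of the nucleolar protein nucleolin (Ncl), had log2 levels of 5.19, 5.45 and 5.57 in Tet2-deficient arrays against 6.75, 6.25 and 6.45 in wild-type arrays. It had the smallest adjusted p of the members (log2 change -1.08 ± 0.16, limma adjusted p = 0.0222). Snora70, from the ribosomal protein gene Rpl10, had 3.95, 4.68 and 4.38 in Tet2-deficient arrays and 5.57, 5.41 and 5.31 in wild-type arrays (-1.09 ± 0.18, adjusted p = 0.0326). In neither did the groups overlap. Snora31, whose human counterpart has been linked to herpes simplex encephalitis, had 6.67, 6.98 and 6.61 in Tet2-deficient arrays and 7.72, 7.44 and 7.68 in wild-type arrays, a log2 change of -0.86 ± 0.14 (adjusted p = 0.0317), a call that ended with the replicate block (0.0584) and with the span and level trend removed (0.0931). Each of the 7 called members kept its call in 1 or 2 of the 6 fits with an array left out, the adjusted p over those fits being 0.0333 to 0.149.

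**Figure D2:**
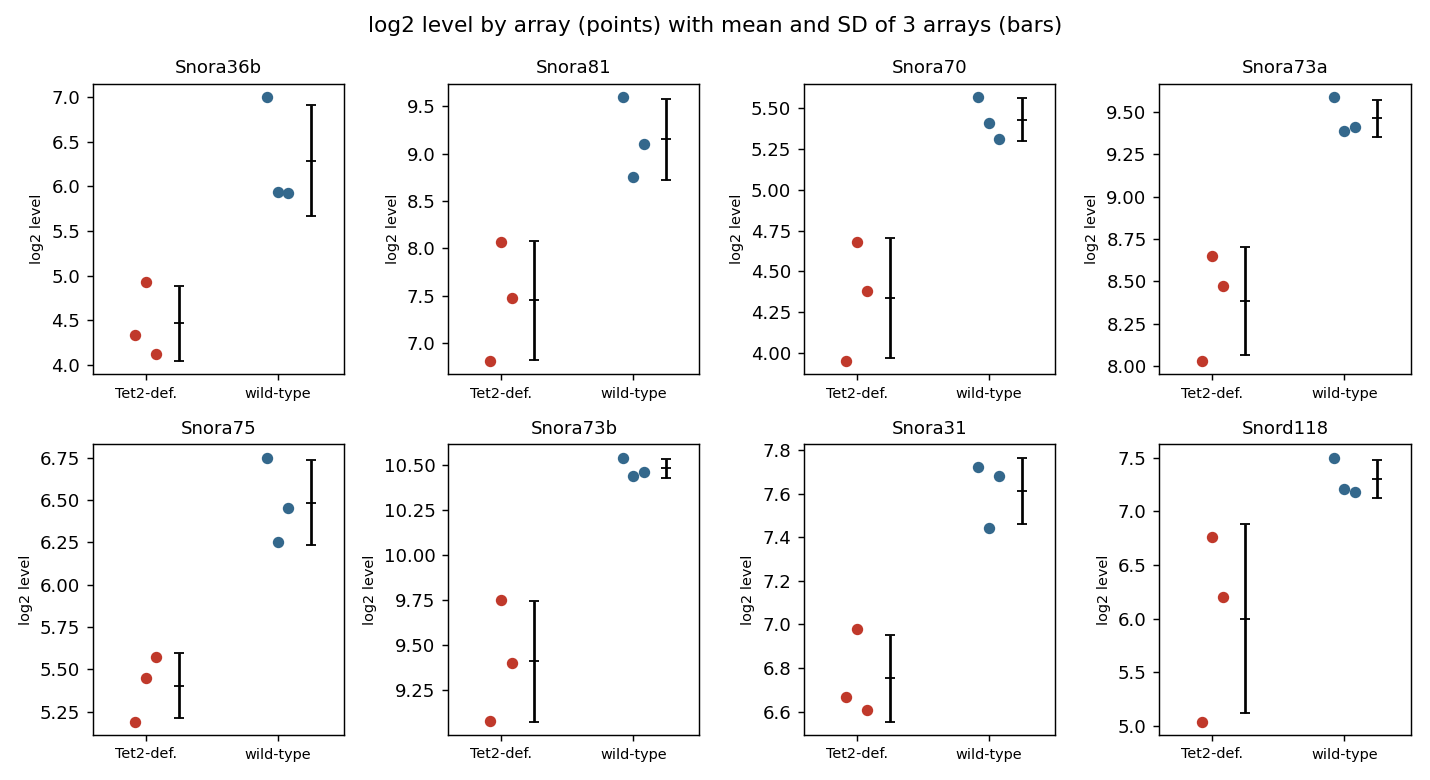
Log2 level by array of the 7 snoRNAs past an adjusted p of 0.05 and of Snord118, the box C/D RNA with the largest difference. Points are the 3 arrays of each group in replicate order from left to right, bars the group mean and SD, and each panel has its own vertical axis. In all 8 panels the Tet2-deficient points lie below the wild-type points.

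Snora30 was short of the threshold despite the third largest difference. Its log2 levels were 5.39, 6.64 and 6.11 in Tet2-deficient arrays and 7.74, 7.28 and 7.39 in wild-type arrays, without overlap (log2 change -1.42 ± 0.28, limma adjusted p = 0.0521). Its Tet2-deficient arrays were as spread as those of Snora81 (SD 0.63 for each). At the other end of the class stood Snora35, an RNA from an intron of the serotonin receptor gene Htr2c that is known from rodent brain. It was dim, with 2.80, 3.21 and 3.06 in Tet2-deficient arrays and 3.07, 3.04 and 3.14 in wild-type arrays, and the groups overlapped (log2 change -0.06 ± 0.13, adjusted p = 0.878).

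Among box C/D RNAs the largest difference was that of Snord118, the U8 RNA, which is needed for maturation of the 28S and 5.8S ribosomal RNAs and is transcribed from its own promoter. Its log2 levels were 5.04, 6.76 and 6.20 in Tet2-deficient arrays against 7.50, 7.21 and 7.18 in wild-type arrays. The groups did not overlap, but the Tet2-deficient arrays had an SD of 0.88 and the change of -1.30 ± 0.35 did not pass (limma adjusted p = 0.117). Snord96a, within the ribosomal scaffold gene Rack1, followed with 2.73, 3.88 and 3.97 in Tet2-deficient arrays and 5.12, 4.52 and 4.51 in wild-type arrays (-1.19 ± 0.31, adjusted p = 0.107). Snord43, from Rpl3, had 3.25, 3.92 and 3.36 in Tet2-deficient arrays and 4.70, 4.26 and 4.85 in wild-type arrays (-1.09 ± 0.21, adjusted p = 0.0503). Snord1b, Snord72 and Snord68 had log2 changes of -0.95, -0.94 and -0.90, none past the threshold.

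Other RNAs of ribosomal RNA processing had smaller differences. Snord13, the U13 RNA, which directs acetylation of 18S ribosomal RNA in human cells and has its own promoter, was at 8.60, 9.09 and 8.59 in Tet2-deficient arrays and at 9.74, 9.40 and 9.26 in wild-type arrays (log2 change -0.71 ± 0.18, limma adjusted p = 0.0999). Snord14e, a U14 RNA, was at 8.41, 8.92 and 8.39 in Tet2-deficient arrays and at 9.23, 9.02 and 9.13 in wild-type arrays (-0.55 ± 0.16, adjusted p = 0.137). Snord22, the U22 RNA, known from frog oocytes to act in 18S processing, had -0.39 ± 0.13 (adjusted p = 0.197). None of these box C/D processing RNAs passed the threshold. The U3 RNA, the most abundant processing snoRNA of vertebrate cells, carries the symbol Rnu3a and so is no member. It was at 7.49, 8.80 and 8.17 in Tet2-deficient arrays and at 9.47, 9.24 and 9.30 in wild-type arrays (-1.18 ± 0.27, adjusted p = 0.0783).

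Only 2 of the 99 members had a higher mean in Tet2-deficient arrays. Snord123 had log2 levels of 3.27, 4.05 and 3.42 in Tet2-deficient arrays and 3.61, 3.37 and 3.10 in wild-type arrays, a log2 change of 0.22 ± 0.21 (limma adjusted p = 0.681). It rested on Tet2-deficient replicate 2, without which the log2 change was -0.02. Snord53 had 4.54, 4.67 and 4.86 in Tet2-deficient arrays and 4.50, 4.42 and 4.90 in wild-type arrays (0.08 ± 0.16, adjusted p = 0.844), and its sign turned without Tet2-deficient replicate 3 (-0.00) or wild-type replicate 2 (-0.01). Both pairs of groups overlapped.

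**Figure D3:**
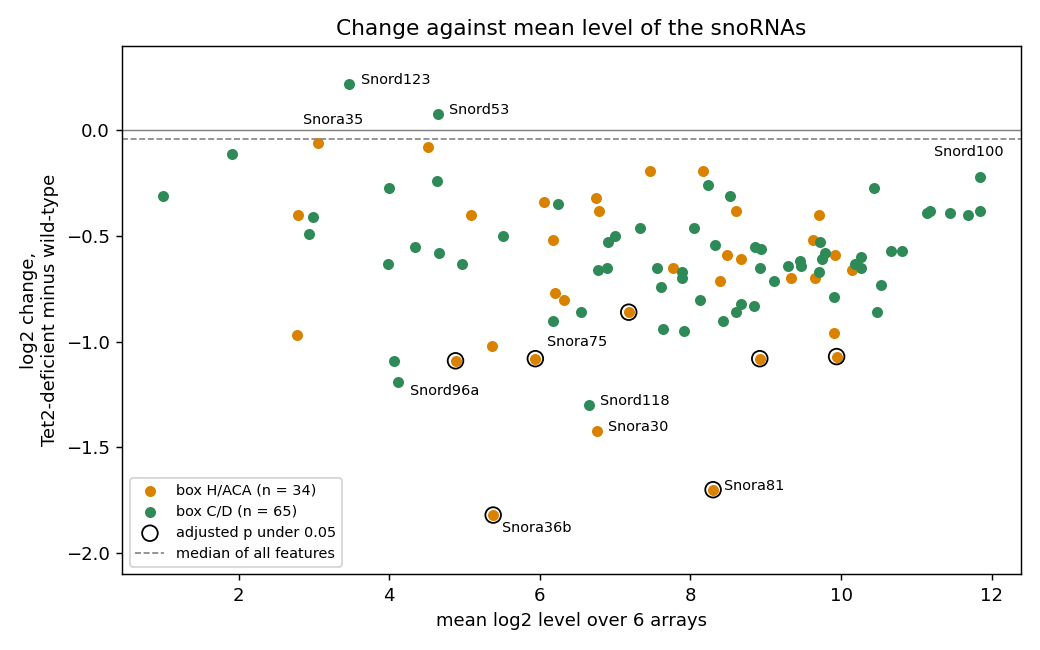
Log2 change (Tet2-deficient minus wild-type, vertical axis) against mean log2 level over 6 arrays (horizontal axis) for the 99 snoRNAs, with the solid line at 0 and the dashed line at the median of all features (-0.04). Ringed points passed an adjusted p of 0.05. Changes spread widely among dim members and lie between -1.08 and -0.22 among the brightest members of each class.

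Members were then divided within each class into 3 groups of nearly equal size by mean log2 level. In the box H/ACA class the median log2 change was -0.52 for the 11 dimmest (levels 2.77 to 6.17), -0.71 for the 11 middle members (6.20 to 8.39) and -0.64 for the 12 brightest (8.49 to 10.15). In the box C/D class it was -0.54 for the 22 dimmest (1.00 to 6.91), -0.67 for the 21 middle members (7.00 to 9.11) and -0.59 for the 22 brightest (9.29 to 11.84). The brightest minus the dimmest group came to -0.11 and -0.05, less than the SD between arrays of the same difference (0.21 and 0.12). In the values as deposited the median difference was thus much alike over the range of levels. With features above the median level alone, brightest minus dimmest turned to 0.13 (box H/ACA) and 0.04 (box C/D). With the span and level trend removed it was 0.05 and 0.16.

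What varied with level in the values as deposited was the scatter. The SD of log2 changes was 0.53, 0.48 and 0.23 from the dimmest to the brightest box H/ACA group and 0.38, 0.20 and 0.16 from the dimmest to the brightest box C/D group. Among the dimmest box C/D members 12 of 22 were lower at an unadjusted p under 0.05, among the middle 19 of 21 and among the brightest 20 of 22. The 2 members with a higher mean were both in the dimmest group. Snord64, a dim RNA from the imprinted Snhg14 locus best known from neurons, showed -0.31 ± 0.26 at a mean level of 1.00. The largest differences, those of Snora36b, Snora81, Snora30 and Snord118, came from dim and middle groups.

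The brightest box C/D members had smaller differences than the median of their class. Snord32a, Snord33 and Snord100 reached log2 levels of at least 11.25 on every array. Snord32a was at 11.59, 11.84 and 11.53 in Tet2-deficient arrays and at 12.08, 12.05 and 11.96 in wild-type arrays, a log2 change of -0.38 ± 0.13 (limma adjusted p = 0.185). Snord33 (-0.40 ± 0.15, adjusted p = 0.244) and Snord100 (-0.22 ± 0.14, adjusted p = 0.485) had groups that overlapped. Such levels lie near the top of the array's range, which ended at a mean log2 level of 12.64, and whether that narrowed their differences was not tested. The brightest box H/ACA members were Snora44 (-0.66 ± 0.20, adjusted p = 0.144), Snora73b (-1.07, one of the calls above), Snora34 (-0.59 ± 0.15, adjusted p = 0.104) and Snora64 (-0.96 ± 0.27, adjusted p = 0.126), none of them overlapping between groups.

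Snord32a, Snord33, Snord34 and Snord35a lie in Rpl13a, a ribosomal protein gene whose intronic snoRNAs are known for a part in lipid-induced stress of cultured rodent cells. Their log2 changes were -0.38, -0.40, -0.46 and -0.64, none past the threshold. Snord35a was at 8.85, 9.29 and 8.77 in Tet2-deficient arrays and at 9.94, 9.52 and 9.38 in wild-type arrays, without overlap. The non-coding gene Snhg12 holds members of both classes: Snora16a (-0.40), Snora44 (-0.66), Snora61 (-0.40) and the box C/D RNA Snord99 (-0.60). Log2 changes thus ran from -0.64 to -0.38 in Rpl13a and from -0.66 to -0.40 in Snhg12, where the quartiles of all 99 members were -0.80 and -0.40. Other hosts went both ways. Members lay further apart in Eif4a2 (-1.70 and -0.86) and Rpl23a (-0.65 to -0.11), and closer in Snhg3 (-1.08 and -1.07).

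Host genes were sought as the genes whose RefSeq span holds a member, without regard to strand, which the table does not give. Of 99 members 90 lay in 1 such gene, 6 in several and 3 in none (Snord118, Snord13 and Snord89). For 72 members the 1 gene was itself measured, giving 52 host genes. Of these 0 passed an adjusted p of 0.05 with limma, the smallest being that of Rc3h2, host of Snord90 (0.0599), and at an unadjusted p under 0.05 there were 7 lower and 5 higher, where 8.37% of all features were lower and 7.63% higher. Many host probe sets were dim: 10 of the 52, with 12 members, were at or below the median level of all features. Without those 10 the medians were -0.62 over 60 members and -0.05 over 42 hosts, with 52 of the 60 members lower than their host. The median log2 change was -0.63 over the 72 members and -0.06 over the 52 host genes, and 63 of the 72 members had a lower log2 change than their host. Over the 72 pairs, which share arrays and in part share hosts, changes of member and host had a Pearson r of -0.07 and a Spearman rho of -0.03. The values went both ways by kind of host, with r 0.46 and rho 0.55 for non-coding hosts, 0.17 and 0.02 for ribosomal protein genes and -0.29 and -0.34 for other protein-coding hosts.

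**Figure D4:**
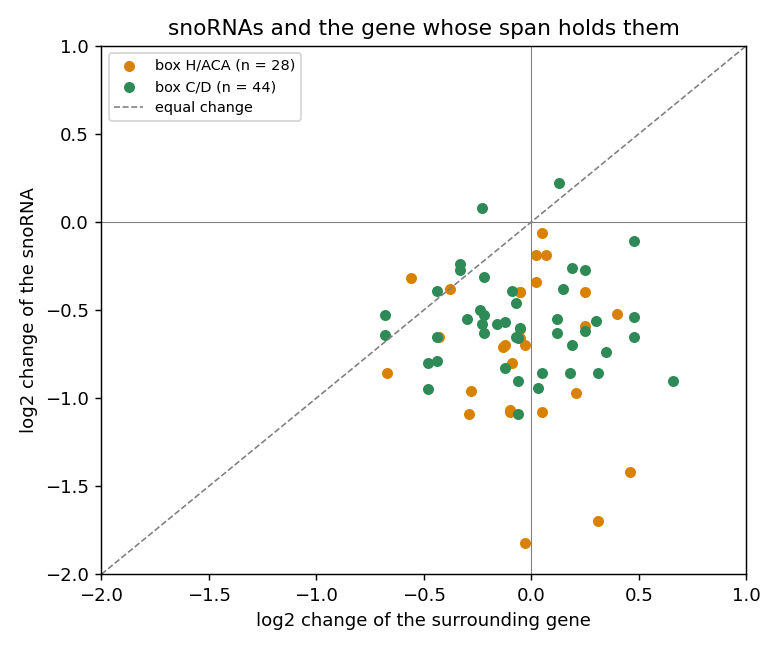
Log2 change of the 72 snoRNAs with 1 measured surrounding gene (vertical axis) against the log2 change of that gene (horizontal axis), both Tet2-deficient minus wild-type. The dashed line marks equal change, and 63 points lie below it.

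Grouped by kind of host, members in ribosomal protein genes (18 members) had a median log2 change of -0.65, against -0.12 for their 13 hosts, of which 5 lay at or below the median level of all features. Members in non-coding genes (18 members) had -0.55, against -0.10 for 11 hosts, and members in other protein-coding genes (36 members) had -0.62, against 0.06 for 28 hosts. Rpl23a, host of Snord42a, Snord42b and Snord4a, was at 4.70, 4.51 and 4.73 in Tet2-deficient arrays and at 4.33, 3.94 and 4.25 in wild-type arrays (0.48 ± 0.14, limma adjusted p = 0.141), while the 3 RNAs had log2 changes of -0.65, -0.54 and -0.11. Snhg12 had 0.19 as its standard error around a log2 change of -0.05 (adjusted p = 0.927), a sign that turned in 4 alternatives. The non-coding host 2410006H16Rik of Snord49a, Snord49b and Snord65 had -0.44 ± 0.13 (adjusted p = 0.148), beside -0.79, -0.39 and -0.65 for its RNAs. The log2 changes of host and snoRNAs thus had opposite signs for Rpl23a and the same sign for 2410006H16Rik, with neither host past the threshold.

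Many snoRNA hosts belong to the class of genes whose transcripts begin with a run of pyrimidines, a feature that couples their translation to growth signals. The sequences around the transcription start, 15 bases on either side, are shown for 3 of the hosts that hold at least 3 members and for the hosts of the 3 members with the largest differences (RefSeq, GRCm38.p6), with CTTTC in capitals where present. Rpl23a, which also holds 3 members, is not shown, so the hosts below are a selection and no contrast is drawn from them. Rpl13a, Snhg12 and 2410006H16Rik held that motif and Rab3gap2, Eif4a2 and Srcap, hosts of Snora36b, Snora81 and Snora30, did not:
Rpl13a (chr7:45128731-45128760, minus strand): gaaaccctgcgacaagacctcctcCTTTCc
Snhg12 (chr4:132308663-132308692, plus strand): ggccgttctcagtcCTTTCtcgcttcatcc
2410006H16Rik (chr11:62602862-62602891, plus strand): tcacgcgccgtCTTTCtctgcggccatcat
Rab3gap2 (chr1:185204153-185204182, plus strand): tttcggggctccgtgctgtcagccttcggg
Eif4a2 (chr16:23107453-23107482, plus strand): ccgcggaaaccccgtaggagcagggcggcc
Srcap (chr7:127511968-127511997, plus strand): cctacccgccccttcagcctccagttactg
CTTTC was found in this window on the sense strand for 6 of 47 hosts with an entry (12.8%) and for 4.76% of the 27025 genes with an entry, and on the other strand for 2.13% and 4.21%. The motif was picked after the windows were seen, and a match is a description of letters, not of a working element.

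No transcript of a snoRNA core protein passed the threshold: with limma 0 of 3 measured for box C/D and 0 of 4 for box H/ACA were called in either direction, and at an unadjusted p under 0.05 there was 1, Nop10, higher. Fbl, the methyltransferase, was at 6.14, 6.57 and 6.16 in Tet2-deficient arrays and at 6.56, 6.32 and 6.54 in wild-type arrays (log2 change -0.18 ± 0.15, limma adjusted p = 0.609). Nop56 had 0.25 ± 0.15 and Nop58 0.19 ± 0.15. Dkc1, the pseudouridine synthase, was at 5.20, 4.89 and 4.83 in Tet2-deficient arrays and at 5.18, 5.13 and 5.11 in wild-type arrays (-0.16 ± 0.13, adjusted p = 0.601), Nop10 had 0.35 ± 0.15, Gar1 0.23 ± 0.14 and Nhp2 -0.19 ± 0.11. The groups overlapped for each of these except Nop10 and Nhp2.

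Among 11 assembly factors 0 passed, with a median log2 change of -0.06; the smallest p was that of Rpap3, a chaperone cofactor (-0.54 ± 0.14, limma adjusted p = 0.0999). Nufip1 (0.19), Ruvbl1 (-0.18) and Ruvbl2 (0.17) followed. Of 17 genes of 3' trimming and cap formation 0 passed, with a median of 0.10: the exosome subunits Exosc8 and Exosc10, of which Exosc10 is a nuclease that trims snoRNA ends, had 0.62 ± 0.17 and 0.43 ± 0.12 (adjusted p = 0.128 and 0.119), Exosc1 had 0.38 and Exosc2 -0.26. Of 20 proteins of the U3 processome 0 passed, with a median of 0.08. Utp20 had 0.53 ± 0.11 and Heatr1 0.63 ± 0.14 (adjusted p = 0.0650 and 0.0734), Rcl1 0.33 and Mphosph10 -0.37. Among 14 genes around RNA polymerase I 0 passed, and the nucleolar protein Npm1 had -0.90 ± 0.22 (adjusted p = 0.0930), Rrn3 0.34, Ubtf 0.28 and Polr1a 0.24. At an unadjusted p under 0.05, 3 of these 69 genes were lower and 11 higher, where 8.37% of all features were lower and 7.63% higher.

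Other short RNAs on the same arrays were set beside the members. The small Cajal body RNAs (Scarna), kin of the snoRNAs that guide modification of spliceosomal RNAs, had a median log2 change of -0.52, all 8 of them below 0, and 0 passed the threshold with limma (4 were lower at an unadjusted p under 0.05). Scarna9 was at 5.04, 5.42 and 5.56 in Tet2-deficient arrays and at 6.63, 6.06 and 6.03 in wild-type arrays (-0.90 ± 0.20, limma adjusted p = 0.0696). Rpph1, the RNA of ribonuclease P, was at 9.67, 10.19 and 9.70 in Tet2-deficient arrays and at 10.75, 10.69 and 10.66 in wild-type arrays and passed (-0.85 ± 0.15, adjusted p = 0.0425). The Y RNA Rny1 had -0.77 ± 0.15 (adjusted p = 0.0531), telomerase RNA, Terc, which carries a box H/ACA domain, -0.53 ± 0.17, Rn7sk -0.40 ± 0.13 and Rmrp -0.36 ± 0.15. Rprl1 and Rprl2, which RefSeq also lists as ribonuclease P RNAs, passed as well (-1.12 and -0.99, adjusted p = 0.0152 and 0.0343), although probe sets of related copies may read each other. Tet2-deficient replicate 1, the lowest array for most snoRNAs, was also the lowest for Rpph1, Rny1, Rn7sk and Rmrp. For Terc it was instead the highest Tet2-deficient array (4.69, against 4.52 and 4.12), as it was for Scarna8 (4.17, against 3.90 and 3.56).

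Genes of microRNA precursors, which are as short, stood closer to the rest of the array: the 126 with a level above the median of all features had a median log2 change of -0.10, with 16.7% of them lower at an unadjusted p under 0.05 (17.6% of the 125 whose symbol starts with Mir). Over all 12603 features above that median the log2 change had a median of -0.01, and 10.6% were lower at an unadjusted p under 0.05. Of those 12603 features 67 were called lower with limma, and 14.5% were non-overlapping and lower. The 126 microRNA genes were dimmer than the members, with a median level of 4.66, against 7.32 (box H/ACA) and 8.23 (box C/D). They are thus like the snoRNAs in length but not in level. The 56 other short features above the median of all features, neither protein-coding nor microRNA, members or Scarna, lay between, with a median of -0.28, 4 called lower and 37.5% non-overlapping and lower. This set is mixed. It holds immunoglobulin and T cell receptor gene segments and pseudogenes beside RNAs such as Rny1, Rpph1 and Terc. It also holds Rnu3a, and AF357399, Gm12238 and AF357425, which RefSeq lists as snoRNAs. Its median is thus not that of small non-coding RNAs alone. The parts of RNA length and of labelling in the snoRNA differences were not tested. When the trend of each array with gene span and mean level was removed, the median log2 change was -0.30 over box H/ACA and -0.22 over box C/D members. The 5 members that then passed were Snora36b, Snora75, Snora73a, Snora73b and Snora70. Snord100, Snord32a, Snord33 and Snord22, bright and short, turned to log2 changes of 0.29, 0.12, 0.09 and 0.05.

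**Figure D5:**
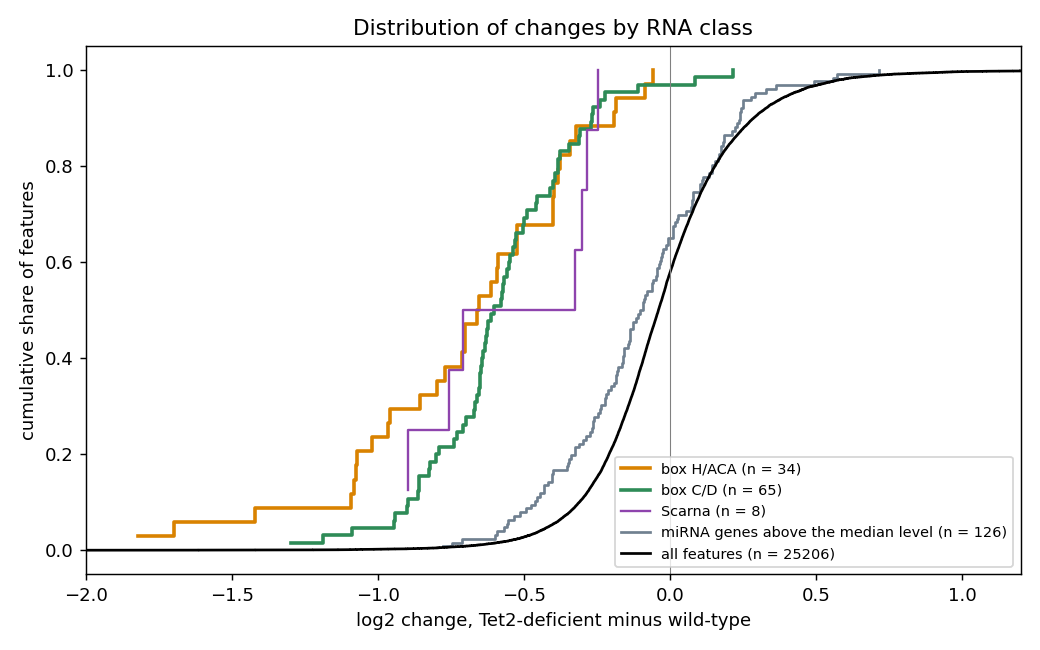
Cumulative share of features (vertical axis) by log2 change, Tet2-deficient minus wild-type (horizontal axis), for both snoRNA classes, the 8 Scarna RNAs, 126 microRNA genes above the median level and all 25206 features. The snoRNA and Scarna curves lie left of 0 over nearly their whole length, with medians of -0.66, -0.60 and -0.52, and the microRNA curve (median -0.10) runs near that of all features. The microRNA genes were dimmer, with a median level of 4.66, against 7.32 (box H/ACA) and 8.23 (box C/D).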

How the data were processed

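The authors deposited log2 expression values made with RMA, for which the submitters' processing notes name affy 1.36.1. The sources used here state no probe set definition, genome build or filter. RMA equalises the distributions of arrays, and a shift shared by all features would not show. The values were used as deposited, with symbols from the platform annotation. Spans came from RefSeq, where all 99 members matched. limma 3.58.1 in R 4.3.3 (lmFit, eBayes) compared the genotypes, two-sided, on the whole table of 25206 features. P-values were adjusted by Benjamini-Hochberg across the table, and 0.05 was the threshold. An exact permutation of 3 against 3 arrays cannot go below 0.1 and was not used. The labels call the arrays biological replicates. No 2 arrays held the same values, with at least 99.66% of features differing in each pair. Their number limits the precision.

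The members and gene lists were chosen with earlier results of these data known. Named were members past the threshold, in each class the 6 largest rises and falls and 4 brightest, Tet2, up to 4 genes with the smallest p in each list, and hosts with at least 3 members. Other genes were named after their values were seen. Alternatives were arrays centred on medians, cyclic loess, features above the median level, a replicate block, a trended and robust prior, array weights, each array left out, removal of a span and level trend, another threshold, means, members averaged by host, and a division into 2 level groups; hosts above the median level alone were added after seeing the data.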

Additional observations from a re-analysis of the deposited data

How the results depend on the processing

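The class medians stayed negative in every alternative run, at -0.82 to -0.47 (box H/ACA) and -0.75 to -0.47 (box C/D) with 1 array left out, and at -0.30 and -0.22 with the span and level trend removed, where members at an unadjusted p under 0.05 came to 35, of which 34 were lower. The count of features past the threshold was 240 as reported, 846 with features above the median level alone, 814 with a trended and robust prior, 498 with array weights, 791 at an adjusted p under 0.1 and 11 to 155 with 1 array left out; that of members was 7, and 30, 37, 17, 25 and 0 to 11 in the same order. Same-numbered arrays correlated in their deviations at 0.084, 0.191 and 0.025, against -0.137 to 0.064 for the other pairs. Whether they share more than a number is not known. With the replicate block 5 members passed, Snora31 and Snora81 losing their calls, and 230 features. The box H/ACA minus box C/D difference was -0.12 with means and -0.09 to 0.01 with 1 array left out, so its sign is not settled. The brightest minus dimmest difference turned to 0.13 (box H/ACA) and 0.04 (box C/D) with features above the median level, to 0.05 and 0.16 with the trend removed, to 0.12 with 2 level groups (box H/ACA), and ran from -0.18 to -0.04 and -0.09 to 0.05 with 1 array left out. Turned signs of single genes were those of Snord123 (-0.02 to 0.37 with 1 array left out), Snord53 (-0.01 to 0.23), Snhg12 (-0.26 to 0.06, 0.01 with centred arrays, 0.03 with the trend removed), and, with the trend removed, Snord100 (0.29), Snord32a (0.12), Snord33 (0.09) and Snord22 (0.05). Where no cause is given it was not tested. With 3 arrays a group, calls near the threshold depend on single arrays.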
